A study of Triticum aestivum with 96 samples.

Results

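The comparison set senescent against mature flag leaves of Mace, a cultivar of bread wheat (Triticum aestivum), around subjective dusk, in plants kept in continuous light. Its members are the libraries collected at ZT59, ZT61, ZT63, ZT83, ZT85 and ZT87, where ZT is the number of hours since the last dawn. Those times correspond to 11, 13 and 15 h after subjective dawn on 2 successive days. They hold 24 of the 96 libraries of the series, 12 from senescent and 12 from mature leaves. They were chosen by their labels, with earlier results of these data known. Senescent leaves had visibly lost chlorophyll, and mature leaves came from plants at ear emergence. Both kinds grew in 1 room under 12 h light and 12 h dark, and from ZT0 the room was held in constant light at 20 °C. The batches were sown 28 days apart, so stage and sowing batch cannot be told apart in any comparison given here. Each library was made from an equal mix of RNA from 2 leaves, and each stage has 2 such libraries at each time. The other 72 libraries were sorted by time of day into dawn (23, 1 and 3 h), midday (5, 7 and 9 h) and night (17, 19 and 21 h), with 12 senescent and 12 mature libraries each.

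The plant circadian clock is a loop of transcription factors that repress one another in turn and so give each target gene its time of day. Constant light removes the external dusk, and subjective dusk is then set by elapsed time counted in days of 24 h. The windows and the fitted peaks both assume this period. Whether the internal clock kept it in either stage was not tested. In Arabidopsis, the evening complex, made of EARLY FLOWERING 3, EARLY FLOWERING 4 and LUX ARRHYTHMO, acts from around dusk into the night, when it represses other clock genes and growth genes. The title of the series names EARLY FLOWERING 3. Leaf senescence is the ordered dismantling of the leaf, in which chloroplasts are broken down and nitrogen and minerals are moved to the growing grain. The question taken up here was which transcripts differed between senescent and mature leaves at dusk, and for which of them that difference was not the one found at other times.

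Values are the deposited scaled counts, that is reads per gene multiplied by a factor of each library. Fold changes are differences on the log2(scaled count + 2) scale, senescent minus mature. The estimated number of reads per dusk library was 5733744 to 11831486 in senescent leaves (median 6936894) and 5600869 to 7850677 in mature leaves (median 6549307). The scaled counts of a dusk library summed to 6009337 ± 193959 in senescent and 7095809 ± 477159 in mature leaves (SD, n = 12 each). The 10 genes most abundant in mature dusk leaves took 3.10% ± 0.614 of that sum in senescent and 4.74% ± 0.895 in mature leaves (SD, n = 12 each). Replicates of a time point correlated across genes at 0.958 to 0.969 in senescent and 0.918 to 0.960 in mature leaves. Leaves of 4 plants were taken per stage and time and pooled in pairs. The p-values therefore measure the spread between pools of plants raised together, plus any change of the stage difference between times within a window. Of the 139118 gene identifiers, 0 could be paired with a gene name, so genes are given by identifier and chromosome, no pathway or marker was looked up, and the labelled tissue was not checked against markers. Mace carries 3 related subgenomes (A, B and D). How reads shared by matching copies of a gene were divided is not given in the sources used here, so the values of a single copy may include reads of another.

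At dusk, 19874 of 42345 genes tested differed between senescent and mature leaves, or 46.9% (limma, adjusted p under 0.05, with time point as a covariate). Of these, 10008 were higher in senescent leaves (23.6% of the genes tested) and 9866 were lower (23.3%). Of the called genes, 2126 rose and 2277 fell by 1 log2 unit or more. For 1413 genes every senescent library lay above every mature one (3.34% of the genes tested), and for 1429 every senescent library lay below (3.37%). The median fold change over all genes tested was 0.01. Without replicate 1 the dusk test called 12715 genes, and without replicate 2 it called 12859. The even split between directions holds for the authors' scaling. With libraries scaled to their total instead, 24802 genes were called, 77.4% of them higher in senescent leaves, against 50.4% in the authors' scaling, and the median of all genes moved to 0.23. In whole leaves, fewer cells of a type and less RNA per cell cannot be told apart.

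The 2 genes that rose and the 2 that fell with the smallest p stood far apart between the stages. They were taken from genes changed by 1 log2 unit or more and the same way at every dusk time point. TraesMAC5B03G02909670, on chromosome 5B, had 1465 to 4908 scaled counts in senescent dusk libraries (median 2107) and 121 to 363 in mature ones (median 192). The lowest senescent library lay well above the highest mature one. Its fold change was 3.38 ± 0.11 (SE, n = 12 each; limma, adjusted p = 2.03e-17). Per gene length, this transcript averaged 153.9 FPKM in senescent and 14.3 FPKM in mature leaves. TraesMAC5D03G03135860, on chromosome 5D, had 877 to 2335 scaled counts in senescent libraries (median 1194) and 197 to 357 in mature ones (median 245). Its fold change was 2.30 ± 0.08 (SE, n = 12 each; limma, adjusted p = 2.74e-17), again with no overlap. Both genes were at their highest within the dusk window at 15 h. TraesMAC5B03G02909670 averaged 1686, 1991 and 3500 scaled counts in senescent leaves at 11, 13 and 15 h, and 190.1, 183.9 and 290.8 in mature leaves at the same times (n = 4 each).

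Among the genes that fell, TraesMAC4B03G02401440, on chromosome 4B, had 3.50 to 14.5 scaled counts in senescent dusk libraries (median 9.19) and 565 to 2271 in mature ones (median 1145). Its fold change was -6.69 ± 0.19 (SE, n = 12 each; limma, adjusted p = 2.52e-18). TraesMAC5A03G02564440, on chromosome 5A, had 0 to 5.98 scaled counts in senescent libraries (median 1.30) and 216 to 3512 in mature ones (median 803). Its fold change was -7.86 ± 0.27 (SE, n = 12 each; limma, adjusted p = 5.38e-17). The size of that change depends on the constant added before the logarithm, since the senescent libraries held few reads of the gene: it was -8.37 with 1 added and -6.44 with 8 added. For all 4 genes the senescent and mature libraries did not overlap at dawn, midday or night either.

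**Figure D1:**
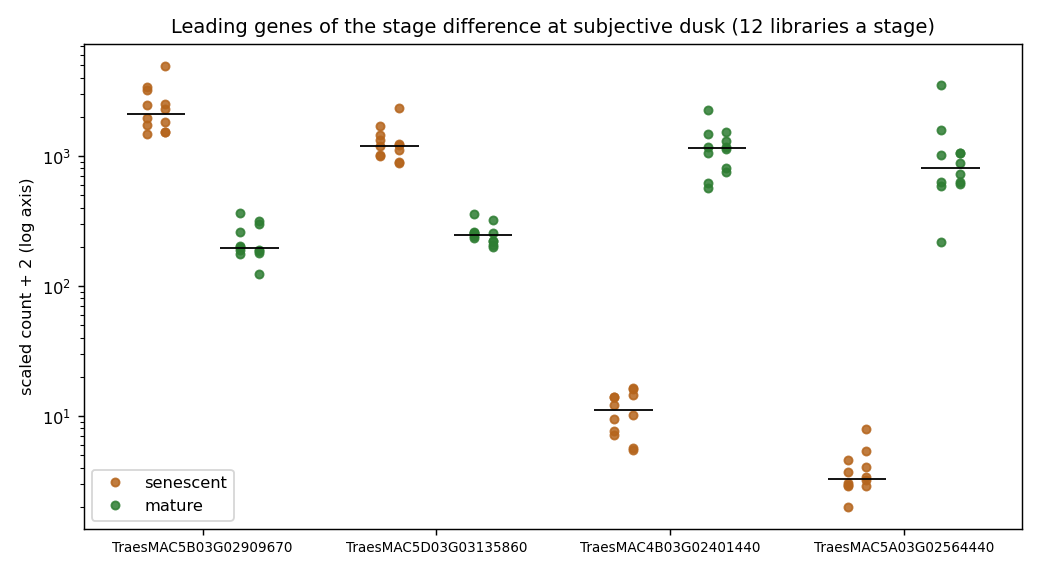
Scaled counts + 2 on a log axis of the 2 genes that rose and the 2 that fell with the smallest p at subjective dusk; each point is a library (12 senescent, 12 mature) and each bar a median. The senescent and mature points do not overlap for any of the 4 genes, and TraesMAC5A03G02564440 sits at 0 to 5.98 scaled counts in senescent leaves.

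The first and the second dusk were fitted separately and share no library. Of genes higher in senescent leaves, 6456 were called at the first dusk and 6997 at the second, and 4834 at both, which is 74.9% of the first list and 69.1% of the second. Of genes lower in senescent leaves, 6694 were called at the first dusk and 7270 at the second, and 5119 at both (76.5% and 70.4%). The number called in opposite directions on the 2 days was 5 for the genes higher at the first dusk and 1 for those lower. Tested directly, the stage difference differed between the second and the first dusk for 0 of 42345 genes (limma, smallest adjusted p = 0.224), and 2633 genes, or 6.22%, had an unadjusted p under 0.05. The stage difference changed across 11, 13 and 15 h for 0 genes (limma F test, smallest adjusted p = 0.0909), with 2792 genes, or 6.59%, at an unadjusted p under 0.05. Fits with precision weights also called 0 genes in each test.

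Most of the dusk difference was shared with the other times. Separate fits called 46.8% of genes at dawn, 47.1% at midday and 46.1% at night, close to the share at dusk. Of the 10008 genes higher in senescent leaves at dusk, 6873 were also called higher at dawn (68.7% of the dusk list, 70.96% of the dawn list), 7081 at midday (70.8% and 72.95%) and 7343 at night (73.4% and 73.9%). Of the 9866 genes lower at dusk, 6845 were also called lower at dawn (69.4% and 68.4%), 7399 at midday (74.99% and 73.1%) and 6941 at night (70.4% and 73.1%). Genes called in the opposite direction were few: 136 of the genes higher at dusk were lower at dawn, 98 at midday and 13 at night. Of the genes lower at dusk, 182 were higher at dawn, 87 at midday and 39 at night. A gene that passes at dusk and misses the threshold elsewhere has not been shown to differ between times. Of the 1979 genes called at dusk and in no other window, 115 had a dusk difference that itself differed from the mean of the other windows.

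The difference between times was therefore tested in a single fit to all 96 libraries. The stage difference at dusk differed from the mean of the stage differences at dawn, midday and night for 1268 of 42428 genes, or 2.99% (limma, adjusted p under 0.05). It was more positive at dusk for 710 genes (1.67%) and more negative for 558 (1.32%), and by at least 1 on the log2 scale for 90 and 122 of them. Against single windows, the dusk difference differed from that at dawn for 2352 genes (5.54%), at midday for 950 (2.24%) and at night for 320 (0.754%). Against dawn, 1341 genes were more positive at dusk and 1011 more negative. Against midday the numbers were 637 and 313, and against night 119 and 201. The count of 1268 fell to 671 without ZT85, to 268 without replicate 1 and to 38 without replicate 2.

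The 1268 genes took several forms. For 251 the stage difference was called at dusk and the mean of the other windows was not. For 383 it was the reverse, with a difference elsewhere and none called at dusk. For 193 genes senescent leaves were called higher at one of these and lower at the other. In 280 genes the difference had the same direction and was larger at dusk, and in 161 it was smaller. TraesMAC5B03G02909670 belongs to the larger ones: its fold change was 3.38 at dusk, against 2.87 at dawn, 2.24 at midday and 3.07 at night. That is 0.66 ± 0.14 above the mean of the other windows (SE; limma, adjusted p = 0.000946). The dusk difference was larger than that at midday by 1.14 (limma, adjusted p = 2.06e-06) and than that at dawn by 0.52 (limma, adjusted p = 0.0476). Against night it was larger by 0.31 and was not called (limma, adjusted p = 0.428). For TraesMAC5D03G03135860 the contrast with the mean of the other windows was 0.11 ± 0.09 (SE; limma, adjusted p = 0.682).

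**Figure D2:**
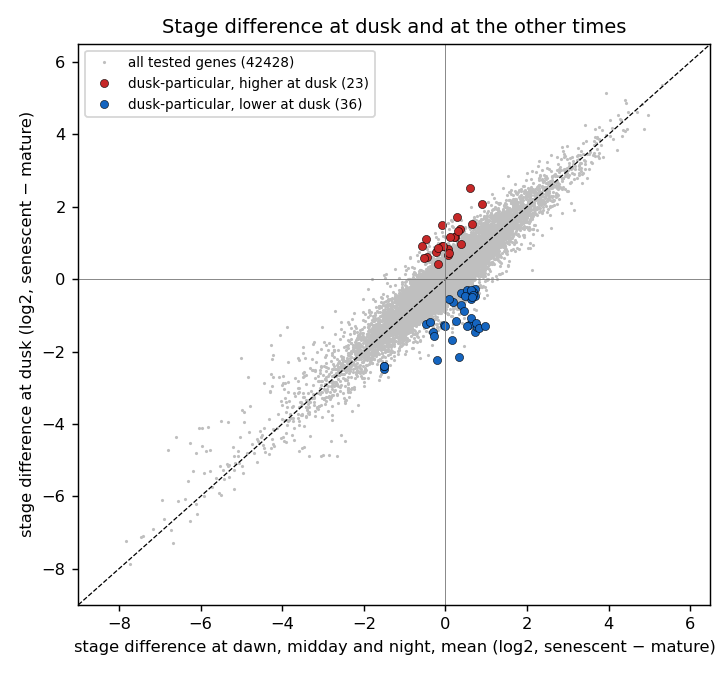
Stage difference (senescent minus mature, log2 scale) at dusk on the vertical axis against the mean over dawn, midday and night on the horizontal axis, 1 grey point a gene (42428 genes); the dashed line marks equal differences. The 23 red and 36 blue points are genes whose dusk difference differed from each of the other windows, and they lie above and below the line by their definition.

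Genes that depart from the mean of the other times differed by when they peaked in mature leaves. The peak was taken from a 24 h cosine fitted to all 48 libraries of a stage, so it shares the dusk libraries with the contrast, and the counts are a description. Among genes rhythmic in mature leaves, those peaking at 16 to 22 h held 351 genes with a more positive and 6 with a more negative stage difference at dusk, of 6874. Genes peaking at 22 to 4 h held 317 and 10, of 4001. Genes peaking at 4 to 10 h held 12 more positive and 320 more negative, of 6653, and those peaking at 10 to 16 h held 1 and 181, of 3345. Of the genes called rhythmic in mature leaves, 5.74% were among the 1268, against 0.325% of the 21555 not called rhythmic. The share also went with level, at 1.26%, 2.33% and 5.38% in 3 groups of equal size from low to high mean scaled count. In these groups 34.2%, 40.9% and 58.3% of genes were called for the stage difference at dusk itself in the fit to all 96 libraries. That share was 44.6% in subgenome A, 44.5% in B and 44.4% in D, and by chromosome it lay between 41.4% on 4B and 46.6% on 2A.

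A narrower set of 59 genes, 0.139% of those tested, is called dusk-particular below. Each was called at dusk, and its dusk difference departed from that at dawn, at midday and at night in the direction of the dusk difference (limma, adjusted p under 0.05 in all 4 tests). Senescent leaves were higher at dusk for 23 of them and lower for 36. The same rule centred on the other windows gave 52 genes at dawn (39 higher, 13 lower), 25 at midday (10 and 15) and 19 at night (12 and 7). Their values are given as a description, since the rule fixed the direction at dusk and against the other windows. Another 414 genes passed at dusk and against 2 of the 3 other windows, and 809 against 1 of them. The number depends strongly on the libraries: it was 15 without ZT85, all among the 59, and 34 without ZT59, of which 33 were. With replicate 1 left out it was 6 (4 higher, 2 lower), of which 2 were among the 59, and with replicate 2 left out it was 0. Scaling to the library total gave 60 genes, 33 higher and 27 lower, of which 44 were among the 59.

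In the 23 genes higher at dusk, the median stage difference was 0.96 at dusk, with a range of 0.43 to 2.53. It was -0.21 at dawn, 0.01 at midday and 0.20 at night. The difference was of opposite sign at dawn in 12 genes, and 9 of these were called there. At night, 9 genes were called in the same direction as at dusk and 1 in the opposite. Of all 42428 genes tested, 1554 were called at dawn against the sign of their dusk difference. At night 20833 were called with that sign and 979 against it. By time of day, the median difference was 0.41 at 9 h, 1.24 at 11 h, 1.14 at 13 h, 0.61 at 15 h and 0.38 at 17 h. At all other times it lay between -0.27 and 0.13. For all 23 genes the difference was positive at each of the 6 dusk time points.

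In the 36 genes lower at dusk, the median stage difference was -1.20 at dusk, with a range of -2.48 to -0.28. It was 0.89 at dawn, 0.13 at midday and 0.25 at night. The difference was of opposite sign at dawn in 31 of the 36, of which 27 were called, and at night in 23, of which 12 were called. In the same direction as at dusk, 4 were called at dawn and 7 at night. At midday 13 were called in the opposite direction and 8 in the same. Of all 42428 genes tested, 1554 were called at dawn against the sign of their dusk difference, 844 at midday and 979 at night. With that sign, 19525 were called at dawn, 18019 at midday and 20833 at night. The median difference ran from 0.95 at 1 h and 0.98 at 3 h to -1.02 at 11 h and -1.44 at 13 h, and was 0.55 again at 21 h. For 31 of the 36 genes it was negative at each of the 6 dusk time points. A stage difference called at dusk and in no other window of this fit was found for 6 of the 23 genes and 2 of the 36. Of all 42428 genes tested, 13348 were called in none of the other windows, whether or not they were called at dusk. In the separate fits of each window, 1979 of the 42345 genes tested at dusk were called at dusk and in no other window.

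**Figure D3:**
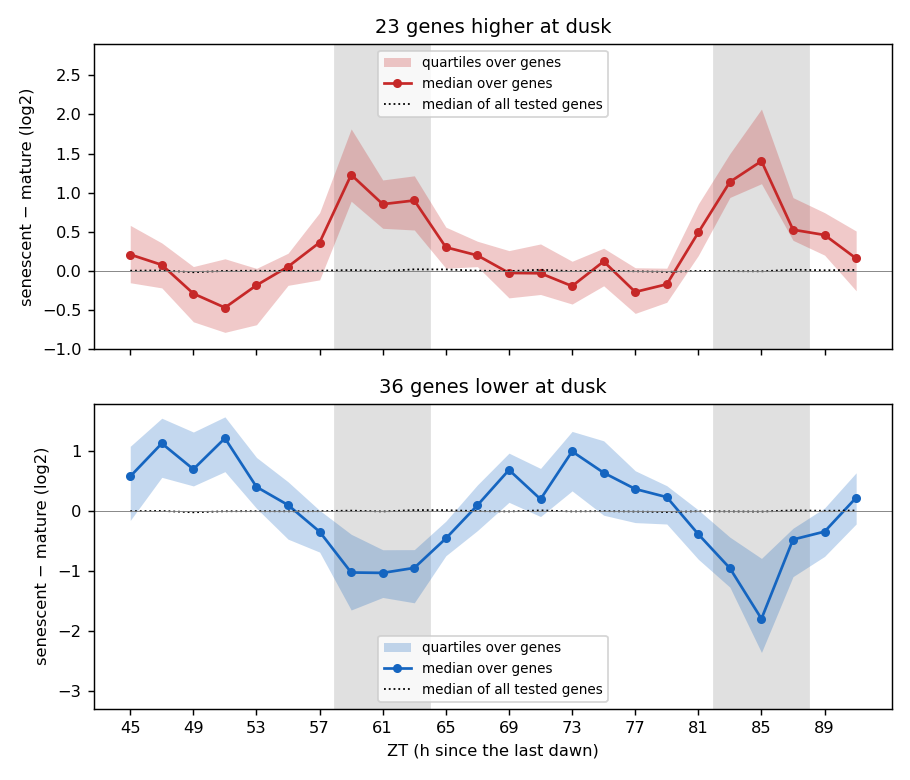
Stage difference (senescent minus mature, log2 scale) at each ZT for the 23 genes higher at dusk and the 36 lower; the line is the median over genes, the band the quartiles, the dotted line the median of all genes tested, and grey marks the dusk times. Both sets depart from 0 on both days around dusk, and the 36 genes also lie above 0 around dawn. The genes were chosen on their dusk difference in the libraries of both days, so their departure at dusk follows largely from that choice.

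A separate choice in each day shows how far such differences recur in libraries that did not choose the genes. Genes called at dusk whose dusk difference was called against the mean of the other windows were chosen in 1 day's 48 libraries and read in the other day's 48. Of 90 such genes chosen on the first day as more positive, 82 were more positive on the second, and 61 had an unadjusted p under 0.05 there, where 6.18% of all genes did in that direction. Of 110 chosen as more negative, 105 kept that sign, and 82 had an unadjusted p under 0.05, against 4.89% of all genes. Chosen on the second day, 144 of 151 more positive genes kept their sign on the first, 100 with an unadjusted p under 0.05, against 6.29% of all genes. Of 117 more negative genes, 110 kept it, 80 with an unadjusted p under 0.05, against 5.53%. In each case the contrast was smaller in the day that had not chosen the genes: the median was 0.90 in the choosing day and 0.48 in the other for the 90 genes, and -1.11 and -0.73 for the 110. After adjustment over all genes, 24 of the 90, 38 of the 110, 27 of the 151 and 46 of the 117 were called on the other day, where the contrast called 1.04% of genes on the second day and 0.747% on the first. Leaves of both days came from the same batches of plants, so this comparison does not separate stage from batch.

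TraesMAC2B03G00995940, on chromosome 2B, leads the 23 genes by p. It had 211 to 915 scaled counts in senescent dusk libraries (median 389) and 86.9 to 507 in mature ones (median 159). Over the whole window the ranges overlap, but at each time of day the 4 senescent libraries lay above the 4 mature ones. They held 211 to 267 scaled counts at 11 h, against 86.9 to 122 in mature libraries, and 684 to 915 at 15 h, against 305 to 507. The dusk fold change was 1.16 ± 0.07 (SE, n = 12 each; limma, adjusted p = 2.41e-12), and it exceeded the mean of the other windows by 0.94 ± 0.12 (SE; limma, adjusted p = 5.92e-08). It exceeded that at night alone by 0.56 (limma, adjusted p = 0.0407). Without replicate 2 the contrast with the mean was 0.87 (limma, adjusted p = 0.0476). In the fit to all 96 libraries, which gave the values at the other times, the adjusted p at dusk was 4.33e-16 (limma). At midday the gene had 123 to 321 scaled counts in senescent and 96.4 to 345 in mature leaves, and at dawn 366 to 1061 in senescent and 331 to 832 in mature leaves. Neither of those differences was called (limma, adjusted p = 0.489 and 0.236). At night senescent leaves held more, 907 to 1416 against 436 to 925 in mature leaves, with a fold change of 0.60 (limma, adjusted p = 1.08e-06). The fitted peak was at 19.7 h in senescent and 21.6 h in mature leaves.

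TraesMAC1B03G00281850, on chromosome 1B, had 377 to 991 scaled counts in senescent dusk libraries (median 529) and 197 to 629 in mature ones (median 240). At 11, 13 and 15 h it averaged 385.1, 549.1 and 850.0 scaled counts in senescent leaves, and 221.6, 262.1 and 556.3 in mature leaves (n = 4 each). The senescent libraries lay above the mature ones at each of these times. Its dusk fold change was 0.83 ± 0.08 (SE, n = 12 each; limma, adjusted p = 6.15e-09), and at dawn the direction was the opposite, at -0.22 ± 0.09 (SE; limma, adjusted p = 0.0286). In the fit to all 96 libraries, which gave the dawn value, the adjusted p at dusk was 3.44e-13 (limma). The contrast with the other windows was 0.77 ± 0.10 (SE; limma, adjusted p = 8.58e-08), and it missed the threshold without replicate 2 (0.63, adjusted p = 0.0838). Its fitted peak was at 20.0 h in senescent and 21.9 h in mature leaves.

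TraesMAC5D03G03158380, on chromosome 5D, leads the 36 genes. It had 31.8 to 102 scaled counts in senescent dusk libraries (median 50.1) and 46.0 to 293 in mature ones (median 111). At 13 h the stages stood apart, with 33.4 to 54.2 scaled counts in senescent libraries and 91.4 to 293 in mature ones, while at 11 h and 15 h their ranges overlapped. The dusk fold change was -1.34 ± 0.18 (SE, n = 12 each; limma, adjusted p = 9.34e-07). In the fit to all 96 libraries, which gave the values at the other times, the adjusted p at dusk was 6.59e-09 (limma). At dawn the order was turned round, with 276 to 523 scaled counts in senescent libraries (median 364) and 77.4 to 315 in mature ones (median 162), a fold change of 1.23 ± 0.19 (SE; limma, adjusted p = 5.37e-08). At night it was 0.97 ± 0.19 (SE; limma, adjusted p = 1.01e-05), and at midday 0.27 ± 0.19 (SE; limma, adjusted p = 0.257). Its contrast of dusk with the mean of the other windows was -2.16 ± 0.22 (SE; limma, adjusted p = 8.45e-11). The time courses show senescent leaves climbing and falling before mature ones, and the fitted peaks were at 3.01 h in senescent and 6.56 h in mature leaves.

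TraesMAC5B03G02934070, on chromosome 5B, had 41.0 to 76.2 scaled counts in senescent dusk libraries (median 60.6) and 56.9 to 317 in mature ones (median 118). It fell by 1.20 on the log2 scale at dusk, a fold change of -1.20 ± 0.19 (SE, n = 12 each; limma, adjusted p = 1.07e-05), and was higher in senescent leaves at dawn, by 1.15 ± 0.19 (SE; limma, adjusted p = 2.16e-07). In the fit to all 96 libraries, which gave the dawn value, the adjusted p at dusk was 8.17e-08 (limma). Its contrast with the other windows was -1.96 ± 0.21 (SE; limma, adjusted p = 1.35e-09). The mature libraries varied widely within the window, from 209.2 ± 86.7 at 11 h and 193.9 ± 96.2 at 13 h to 78.2 ± 22.1 at 15 h (scaled counts, SD, n = 4 each). The senescent ones stayed at 70.0 ± 4.35, 53.6 ± 8.13 and 54.9 ± 15.1 at those times. Its fitted peaks were at 2.39 h in senescent and 5.93 h in mature leaves.

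**Figure D4:**
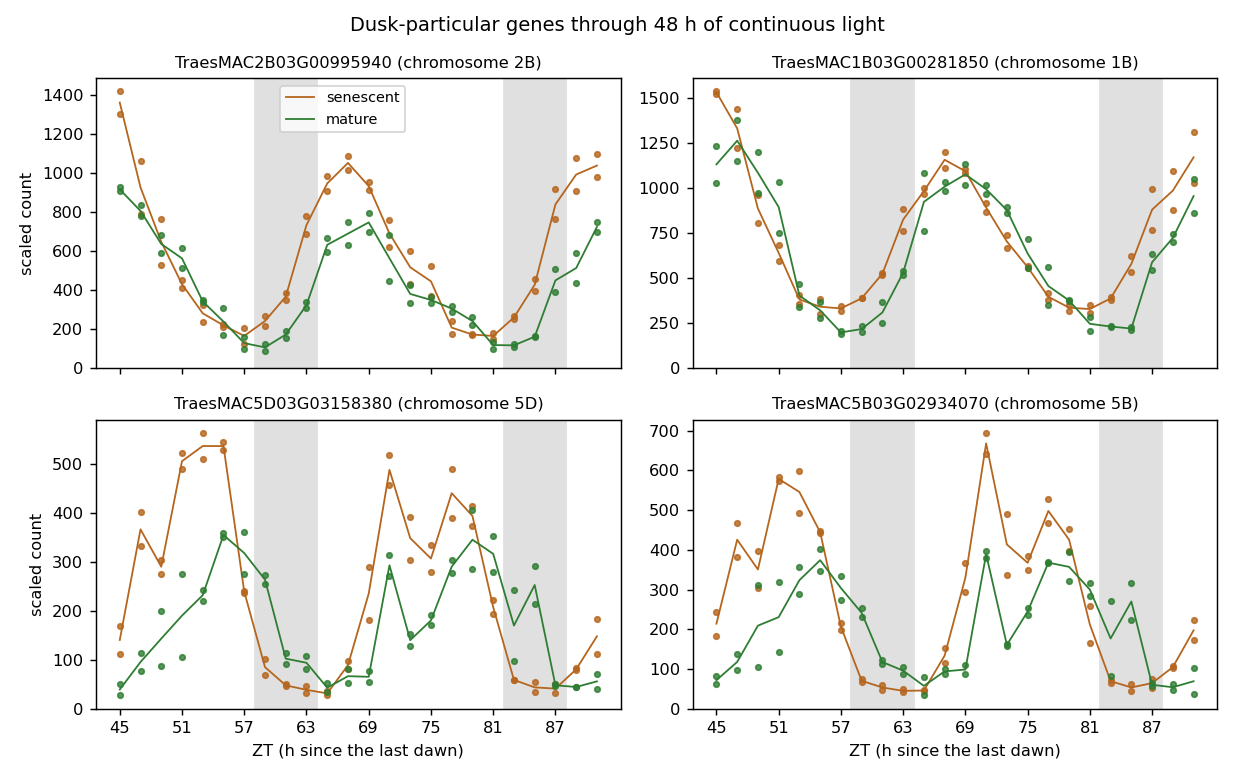
Scaled counts against ZT of the 2 dusk-particular genes higher and the 2 lower at dusk with the smallest p; points are libraries, lines join the mean of both libraries at each time, and grey marks the dusk times. The upper genes climb from their trough earlier in senescent leaves, and the lower genes reach their trough earlier there. By time of day, the mean of TraesMAC5D03G03158380 was lowest at 15 h and that of TraesMAC5B03G02934070 at 13 h in senescent leaves. In mature leaves both were lowest at 17 h, after the dusk window.

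All 59 genes were called rhythmic in both stages (adjusted p under 0.05), against 63.5% of all genes tested in senescent and 49.2% in mature leaves. Their rhythms were large. The median distance from peak to trough on the log2 scale was 2.76 in senescent and 3.22 in mature leaves for the 23 genes, and 2.12 in both stages for the 36. Over all genes tested it was 0.44 in senescent and 0.43 in mature leaves. The distance was the larger in senescent leaves for 6 of the 23 genes and 18 of the 36, against 52.0% of all genes tested. The rule asks for a stage difference that changes with time of day, and rhythm was fitted to the same libraries. A high rhythmic share and large rhythms therefore follow in part from the choice of genes, and are given as a description.

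Of the 23 genes higher in senescent leaves at dusk, 22 peaked between 16 and 24 h in mature leaves. Their median peak was at 19.3 h in senescent leaves (quartiles 18.8 and 20.0 h) and at 20.8 h in mature leaves (quartiles 20.4 and 21.6 h). Of the 36 genes lower at dusk, 33 peaked between 4 and 12 h in mature leaves. Their median peak was at 5.61 h in senescent leaves (quartiles 3.85 and 6.06 h) and at 9.00 h in mature leaves (quartiles 7.55 and 9.77 h). The peak was earlier in senescent leaves in 22 of the 23 genes, with a median shift of -1.66 h, and in 34 of the 36, with a median of -3.21 h. It was earlier by more than 2 h in 2 of the 23 and 30 of the 36. Across the 17165 genes rhythmic in both stages the median shift was -0.82 h, with 11791 earlier, 3613 of them by more than 2 h, and 5374 later in senescent leaves. These shifts and the dusk contrast come from the same libraries, so they are 2 descriptions of the same curves.

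**Figure D5:**
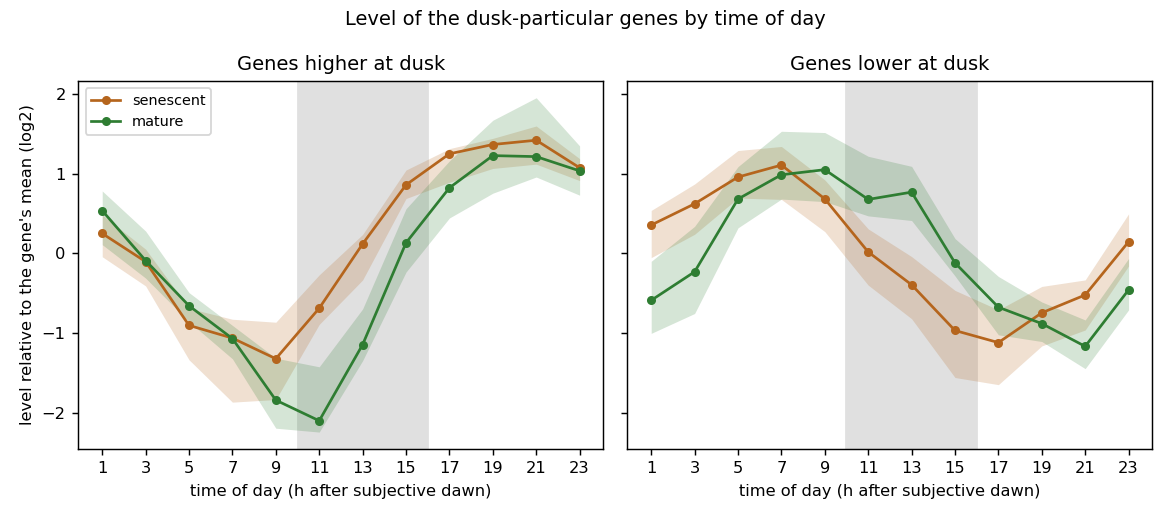
Level relative to each gene's own mean (log2 scale) by time of day in senescent and mature leaves, for the 23 genes higher at dusk (left) and the 36 lower (right); lines are medians over genes, bands the quartiles, and grey marks the dusk window. At 11 h the 23 genes stood at -0.69 in senescent and -2.10 in mature leaves, and at 13 h the 36 genes stood at -0.39 in senescent and 0.77 in mature leaves.

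Within the dusk window the median level of the 23 genes climbed in both stages. Their median level relative to each gene's own mean was -0.69, 0.12 and 0.86 at 11, 13 and 15 h in senescent leaves, and -2.10, -1.15 and 0.13 in mature leaves. At 19, 21 and 23 h, around their peak, the medians were 1.37, 1.42 and 1.08 in senescent and 1.23, 1.22 and 1.04 in mature leaves. The median of the 36 genes was 0.02, -0.39 and -0.97 at 11, 13 and 15 h in senescent leaves, and 0.68, 0.77 and -0.12 in mature leaves. Per gene length, the 23 genes had a median of 16.3 FPKM in senescent and 9.33 FPKM in mature dusk leaves, and the 36 genes 9.01 FPKM in senescent and 16.2 FPKM in mature leaves. All genes tested had a median of 4.64 FPKM in each stage at dusk.

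The 59 genes were spread over the genome. The 23 held 6 genes of subgenome A, 9 of B and 8 of D, and the 36 held 12 of each. All genes tested divided as 33.1%, 33.5% and 33.4%. Of the 21 chromosomes, 20 carried at least 1 of the 59. Chromosomes 4A, 4B and 4D, singled out after the counts were seen, carried 11 of the 36, with 5, 3 and 3 genes. They carried 3 of the 23 and 12.6% of all genes tested. The set holds 2 pairs of genes with consecutive identifiers, on 4A and 4D, both among the 36. Whether counting used the strand is not given in the sources used here, so reads of overlapping or antisense neighbours cannot be told apart, and such a pair may not be 2 separate observations. The genes were of higher level than most: the median of the mean scaled count was 149.5 for the 23 and 194.4 for the 36, against 55.5 for all genes tested.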

How the data were processed

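RNA-seq libraries of whole flag leaves were analysed, 48 senescent and 48 mature. The deposited table holds signal values, here called scaled counts: 99.97% or more of the nonzero values of any of the 96 libraries are multiples (within 0.1) of a step that ranges from 0.516 to 1.43 between libraries. The factor was applied before deposit and is not described. The deposited FPKM values (fragments per gene length, scaled per library) were used for levels per length. The submitters' processing notes name bcl2fastq 2.17, STAR, Cufflinks and Cuffnorm; the genome build is not given in the sources used here. Since the values are scaled and some are fractional, no count test was run.

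Genes averaging 10 or more scaled counts in a fit were tested with limma 3.58.1 (variance trend; R 4.3.3, package data.table, version 1.17.8) on log2(scaled count + 2), which understates changes of low genes, with Benjamini-Hochberg adjustment over all genes tested and a threshold of 0.05. The dusk fit used 24 libraries with time point as a factor. Contrasts between windows came from a fit to 96 libraries with 24 time points and stage by window. Rhythm was tested with a 24 h cosine and sine per stage.

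With no gene names, the text names the 2 genes in each direction with the smallest p for the dusk difference (at least 1 on the log2 scale, same sign in both replicates and at all 6 times), and the 2 dusk-particular genes in each direction with the smallest p against the mean of the other windows (same sign in both replicates and both days). The members and lists were chosen with earlier results of these data known; TraesMAC5D03G03135860 was named in them. The fits were also run on simulated data without rhythm and with stage differences at dusk only. That run does not cover rhythmic genes. No sequences are shown.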

Additional observations from a re-analysis of the deposited data

Results flagged for a closer look

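The stage difference of 1268 genes at dusk differed from the mean of the other windows, and that of 59 genes differed from each of the other windows. Both counts come from limma contrasts in the fit to all libraries and are looked at again because the effect of stage differed between times of day. Among the named genes, the dusk difference minus that of the other windows was 0.66 for TraesMAC5B03G02909670, 0.94 for TraesMAC2B03G00995940 and 0.77 for TraesMAC1B03G00281850. It was -2.16 for TraesMAC5D03G03158380 and -1.96 for TraesMAC5B03G02934070, where senescent leaves were lower at dusk and higher at dawn. For TraesMAC5B03G02909670 the dusk difference was not called against that at night alone (limma, adjusted p = 0.428).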

How the results depend on the processing

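The dusk fold change of the 4 leading genes and the contrast with the other windows of the 4 named dusk-particular genes kept their direction under every alternative run. The threshold was missed once, for TraesMAC1B03G00281850 without replicate 2 (contrast 0.63). Other values of named genes were not recomputed. The count of genes called at dusk (19874) was 12896 for genes averaging 50 or more scaled counts, 13169 at the first dusk alone, 4403 with a fold change of at least 1 added and 12715 to 12859 without a replicate. The count that differed from the other windows (1268) was 212 with a difference of at least 1, 671 without ZT85, 319 in the first cycle, 440 in the second and 38 to 268 without a replicate. With a weight for each library it rose to 1829. The count of dusk-particular genes (59) was 37 with a difference of at least 1, 724 with the contrast against the mean alone, 34 without a filter (32 among the 59), 34 without ZT59 (33), 15 without ZT85 (15), 3 in the first cycle (3), 7 in the second (5) and 0 to 6 without a replicate (0 and 2). It rose to 79 with a weight for each library (51 among the 59), 79 without ZT87 (53) and 68 for genes averaging 50 or more scaled counts (50). Precision weights (52), scaling by the median of gene ratios (58) and leaving out ZT45 and ZT91 (22, of which 17 were among the 59) were added after seeing the data. The cause of these changes was not tested, beyond fewer libraries or genes where these were left out. The test of the second against the first dusk called 1 gene with 8 added before the logarithm, and the test across 11, 13 and 15 h called 0 to 3 without a replicate. With time point and replicate number as a replicate block, the counts were 19384, 1066 and 42 (40 of them among the 59), and 0 in both tests within dusk. Replicate numbers were not taken to pair the libraries: deviations of same-numbered libraries correlated at -0.04 to 0.04 at the 6 dusk times and at -0.20 to 0.13 over all 24 time points, with 3 over 0.1. Negative binomial count tests listed among the alternatives were not run, because the deposited values are scaled and partly fractional.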
